A study of Caenorhabditis elegans with 6 samples.

Results

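The 9 genes described here encode transcription regulators that set or follow the rhythm of larval molting in Caenorhabditis elegans: nhr-23, nhr-25, nhr-85, blmp-1, bed-3, grh-1, myrf-1, lin-42 and peb-1. They were chosen by name, with earlier results of these data known, and all 9 had a row among the 46911 gene identifiers. RNA-seq reads were counted in whole animals of nmr-2(ok3324), a strain with a deletion allele of an NMDA-type glutamate receptor subunit gene, and of the wild-type strain N2 (WT), with 3 libraries each. Both strains were labelled L4, the last larval stage, and came from a 3 h egg lay by about 40 gravid animals on 10 cm plates with E. coli OP50 at 20 °C. Animals were washed in M9 and frozen, with no other treatment. Whether a genotype's libraries stem from different cultures is not stated, so a p-value here reflects the spread among these libraries only, and that spread may be technical.

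A C. elegans larva builds a new cuticle and sheds the old one at the end of every larval stage. The transcripts of many epidermal genes climb and decline once per stage, and a group of transcription factors that oscillate themselves is required for this program. In wild-type adults, which do not molt, this cycling is known to stop. NHR-23 is the nuclear receptor related to mammalian ROR and is needed for molting, and it also acts in spermatogenesis. NHR-85 is related to Rev-Erb and acts with NHR-23 on the lin-4 microRNA gene. LIN-42 is the homologue of the clock protein PERIOD and limits transcription of microRNA genes of the same timing pathway.

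Totals ran from 21234748 to 27893186 counts per library. Scaling factors (TMM, the trimmed mean method of edgeR) were 0.986 to 1.01 in 4 libraries, with the extremes in the libraries numbered 2: 1.20 for nmr-2(ok3324) and 0.838 for WT. nmr-2 itself had 2 to 10 counts per library, too few to check the genotype labels. Every marker of epidermis, intestine, body wall muscle, neurons and germ line had counts in all 6 libraries. col-19, a collagen gene that is switched on at the passage from larva to adult, stood at 1733 to 2428 CPM (counts per 1000000 after TMM scaling), and the yolk protein gene vit-2 at 15685 to 22244 CPM. dpy-7, a collagen gene of larval cuticles, had 5 to 11 counts per library. These levels go against the L4 label, in both genotypes. The log2 fold change of col-19 was -0.02 (95% interval -0.42 to 0.37).

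Positions are those of the WBcel235 annotation, since the build behind the counts is not given in the sources used here. nhr-23 (WBGene00003622) lies on chromosome I from 7214745 to 7221299 on the plus strand. nhr-85 (WBGene00003675) lies on chromosome I from 13055201 to 13062122 on the minus strand, and 835 bases of its exons, 33.2% of them, overlap exons of npr-14 on the opposite strand. npr-14 had 0 to 4 counts per library. The strand setting of the counting is not given, so reads from those bases may have been left out or assigned to either gene. lin-42 (WBGene00018572) and myrf-1 (WBGene00004134) lie on chromosome II, from 1233236 to 1252359 and from 10496987 to 10502541, both on the minus strand. bed-3 (WBGene00009133) lies on chromosome IV from 9916524 to 9921967 on the plus strand, and shares 30 exon bases with dur-1 on the other strand. nhr-25 (WBGene00003623) and peb-1 (WBGene00003968) lie on the X chromosome, from 13008493 to 13013964 and from 2211051 to 2218988, on the plus strand. blmp-1 (WBGene00003847) and grh-1 (WBGene00001707) are 2 further genes of chromosome I, from 10409302 to 10414773 on the plus strand and from 1258201 to 1268155 on the minus strand.

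The regulators other than nhr-23 were rare transcripts. Levels of different genes were compared as CPM per kb of merged exon. nhr-23 had 18.9 to 26.6 CPM per kb over the 6 libraries, a level above 70.7% of the 13130 tested genes with a length. The median of those genes was 7.63 CPM per kb, and each of the other 8 regulators was below it in every library. myrf-1 came next at 2.92 to 3.70 CPM per kb, 6.96-fold under nhr-23 in the mean of all libraries, and this was the only pair of neighbours in the order whose ranges did not overlap.

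blmp-1 (1.93 to 2.99 CPM per kb) and lin-42 (1.41 to 3.12) followed, with means that differed by 1.08-fold, less than the spread between libraries. grh-1 (0.823 to 1.52) was lower, and nhr-85 (0.304 to 0.902), bed-3 (0.237 to 0.647) and nhr-25 (0.240 to 0.595) overlapped widely. peb-1 was lowest at 0.155 to 0.539 CPM per kb, above 1.68% of tested genes. peb-1 had 8 to 32 counts per library, and at 8 counts the counting error alone is 35.4%. In whole animals, fewer cells of a type and less RNA per cell cannot be told apart.

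**Figure D1:**
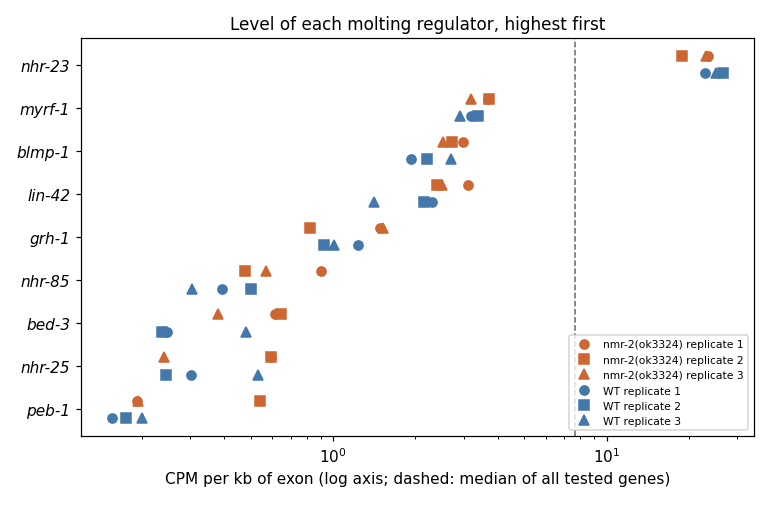
Level of the 9 molting regulators in each of the 6 libraries, in CPM per kb of merged exon on a log axis, ordered by the mean of all libraries. nhr-23 lies at 18.9 to 26.6, to the right of the dashed median of all tested genes (7.63), and the other 8 lie to its left.

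The comparison of genotypes asked whether levels of these regulators differed between the libraries labelled nmr-2(ok3324) and those labelled WT. 0 of the 9 passed an adjusted p of 0.05 in the edgeR quasi-likelihood test, with the adjustment made over all 13138 tested genes, 2.16% of which passed. DESeq2 and limma-voom also called 0 of the 9, and 1 of the 9 (lin-42) had an unadjusted p under 0.05 in each of these tests. By edgeR, 17.2% of all tested genes had one. The log2 fold change was above 0 for 8 of the 9, as it was for 53.4% of all tested genes, and its median was 0.41, against 0.03 for all. Fold changes drifted with abundance: with the tested genes ranked by level into 10 equal bins, the median was 0.30 in the lowest bin, which holds peb-1, 0.27 in the next, which holds nhr-25, nhr-85 and bed-3, and -0.19 in the highest. The share of genes above 0 was 69.2% in the 4 lowest bins, which hold 5 of the 9. It was 64.2% in the bin of blmp-1 and lin-42 and 52.2% in that of myrf-1. In the bin of nhr-23 it was 33.3%, with a median of -0.08. The part of this drift with abundance in the members' values was not tested.

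lin-42 was the regulator with the smallest p. Its levels, given here and throughout in the order of replicates 1, 2 and 3, were 12.5, 9.64 and 10.1 CPM in nmr-2(ok3324) and 9.21, 8.63 and 5.63 CPM in WT. The groups did not overlap, and WT replicate 3 was well under the other libraries. Of all tested genes, 13.4% did not overlap in this direction. This gave a log2 fold change of 0.46 (SE 0.20, 95% interval 0.04 to 0.89, edgeR adjusted p = 0.26). Without WT replicate 3 it was 0.26 (edgeR adjusted p = 0.49), and without both libraries numbered 2 it was 0.61 (edgeR adjusted p = 0.087), the lowest adjusted p of any regulator under any setting.

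nhr-23 was the only regulator with a log2 fold change below 0. Its levels were 59.1, 47.8 and 58.3 CPM in the mutant and 57.8, 67.1 and 63.2 CPM in WT. The lowest library was nmr-2(ok3324) replicate 2 and the highest WT replicate 2, the same 2 that had the extreme scaling factors. The log2 fold change of nhr-23 came to -0.19 (SE 0.11, edgeR adjusted p = 0.39), and with its 1227 to 1666 counts per library the 95% interval of the fold was 0.742 to 1.04. Without nmr-2(ok3324) replicate 2 it was -0.10, without both libraries numbered 2 it was -0.04, and with library totals in place of TMM -0.02.

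nhr-85 had 2.27, 1.20 and 1.43 CPM in the mutant libraries and 0.990, 1.26 and 0.765 CPM in the WT libraries. The groups overlapped through nmr-2(ok3324) replicate 2 and WT replicate 2, and nmr-2(ok3324) replicate 1 was the highest. This corresponded to a log2 fold change of 0.71 (SE 0.37, edgeR adjusted p = 0.34), to 0.38 without nmr-2(ok3324) replicate 1 and to 1.09 without both libraries numbered 2 (edgeR adjusted p = 0.19). The interval of the fold, 0.941 to 2.84, holds both no difference and a more than 2-fold one.

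BLMP-1, the worm counterpart of the mammalian repressor BLIMP1, opens chromatin at oscillating genes, and bed-3, which encodes a BED zinc finger protein, is among its known targets. blmp-1 had 10.3, 9.34 and 8.65 CPM in the mutant and 6.63, 7.56 and 9.30 CPM in WT, where WT replicate 3 reached into the mutant range. bed-3 had 1.38, 1.46 and 0.855 CPM in the mutant and 0.559, 0.533 and 1.09 CPM in WT, again with WT replicate 3 above nmr-2(ok3324) replicate 3. The log2 fold changes were 0.27 (SE 0.18) for blmp-1 and 0.76 (SE 0.43) for bed-3, and neither passed. Without WT replicate 1 that of blmp-1 was 0.16, and leaving out any other library gave 0.20 to 0.40. That of bed-3 was 1.16 without WT replicate 3 (SE 0.50, edgeR adjusted p = 0.25), 0.58 to 0.95 without any other 1 library, and 0.45 without both libraries numbered 2 (edgeR adjusted p = 0.76).

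nhr-25, which encodes the receptor related to fly FTZ-F1 and acts in molting and epidermal cell fate, divided the libraries as bed-3 did. It had 1.53, 1.53 and 0.618 CPM in the mutant and 0.775, 0.630 and 1.37 CPM in WT. Replicates 1 and 2 of nmr-2(ok3324) and WT replicate 3 were high and the other 3 were low, so that most of the spread lay within genotypes. Its log2 fold change was 0.41 (SE 0.44) and rested on single libraries: it was 0.80 without WT replicate 3 and 0.71 without nmr-2(ok3324) replicate 3, and 0.20 to 0.29 without any 1 of the other 4. Without both libraries numbered 2 it was 0.03. Over the 6 libraries, the log2 CPM profiles of nhr-25 and bed-3, each centred on its own mean, had a root-mean-square difference of 0.27, the smallest that either had with any other regulator. These are 2 genes with 11 to 43 counts per library, and the profiles share the libraries and their scaling.

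**Figure D2:**
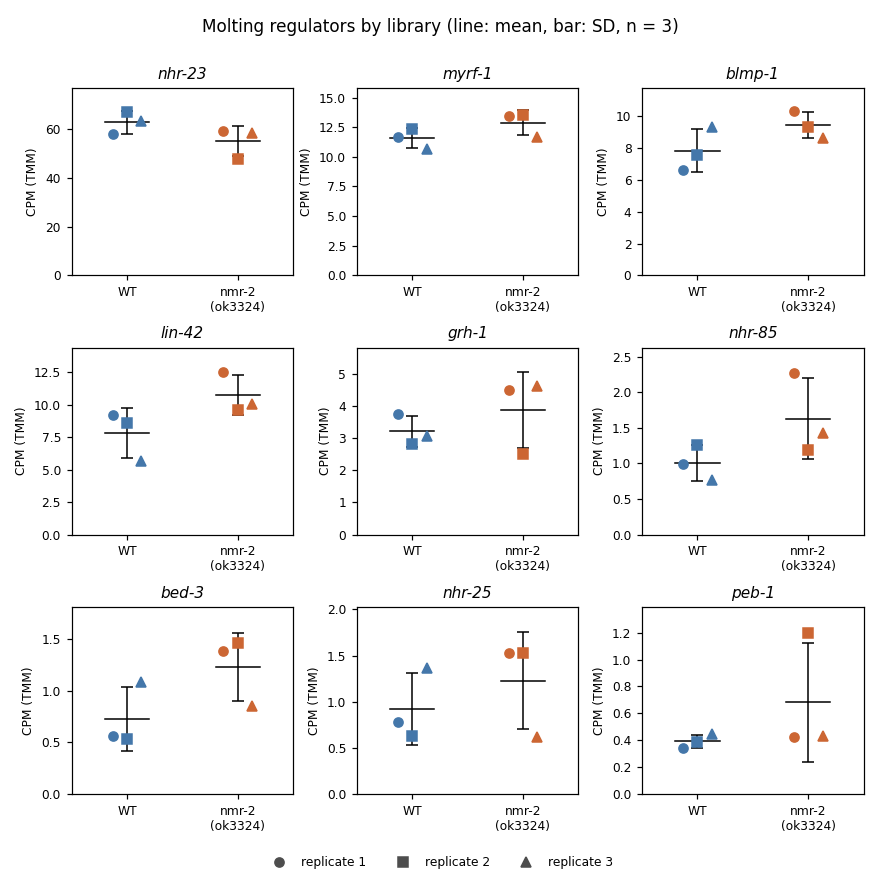
CPM of each regulator by genotype, with 1 point per library, the mean as a line and the SD as a bar (n = 3), each panel with its own axis from 0. lin-42 is the only panel in which the groups do not overlap. WT replicate 3 (triangle) lies within the mutant range for blmp-1, bed-3, nhr-25, grh-1 and peb-1.

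GRH-1, the Grainyhead factor of epidermal barrier formation, and MYRF-1, a membrane-bound factor that is released by cleavage, are both required for molting. grh-1 had 4.50, 2.50 and 4.61 CPM in the mutant and 3.74, 2.81 and 3.06 CPM in WT, and nmr-2(ok3324) replicate 2 was the lowest of all 6. myrf-1 was the steadiest regulator, with 13.4, 13.5 and 11.7 CPM in the mutant and 11.7, 12.4 and 10.7 CPM in WT. The log2 fold changes were 0.27 (SE 0.27) for grh-1 and 0.16 (SE 0.15) for myrf-1. Without nmr-2(ok3324) replicate 2 that of grh-1 was 0.50, and it was 0.14, 0.13 and 0.17 without nmr-2(ok3324) replicate 1, nmr-2(ok3324) replicate 3 and WT replicate 2. That of myrf-1 was 0.09 without WT replicate 3 and 0.34 with library totals. The 95% interval of the fold of myrf-1 was 0.898 to 1.39.

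PEB-1 is a DNA-binding protein of the pharynx that is needed for molting. peb-1 had 0.426, 1.20 and 0.428 CPM in the mutant and 0.344, 0.388 and 0.443 CPM in WT. Its high value came from nmr-2(ok3324) replicate 2 alone, with 32 counts, and the other 5 libraries had 8 to 12. The log2 fold change of 0.80 (SE 0.56) was 0.12 without that library.

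**Figure D3:**
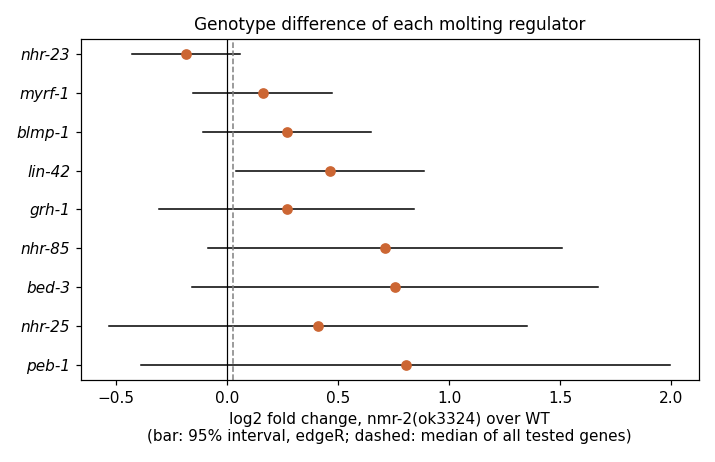
log2 fold change of nmr-2(ok3324) over WT for the 9 regulators, ordered by level, with 95% intervals from the edgeR fit. The intervals of 8 regulators span 0, that of lin-42 runs from 0.04 to 0.89 before any adjustment for the number of genes tested, and intervals widen towards the rare transcripts at the bottom.

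The median SD of log2 CPM within genotypes was 0.37 over the 9 regulators and 0.22 over all tested genes. Of the 9, 5 lie in the 4 lowest bins of level, and genes of like level were not compared. The SD was 0.11 for myrf-1 and 0.14 for nhr-23, the most abundant pair, and 0.19 for blmp-1, each under the median of all genes. It was 0.62 for nhr-25 and 0.55 for peb-1, where the lowest libraries had 13 and 8 counts. No single library was high for all. nmr-2(ok3324) replicate 2 was the highest library for 4 regulators and the lowest for 2, and nmr-2(ok3324) replicate 1 was above the regulator's own mean for 8 of the 9.

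Setting each regulator against nhr-23 within the same library removes the scaling factors, at the price that all 8 ratios share 1 denominator. That denominator was itself lower in the mutant (log2 fold change -0.19), a difference that adds to all 8 ratios. lin-42 had 21.2, 20.2 and 17.3 counts per 100 nhr-23 counts in nmr-2(ok3324), against 15.9, 12.9 and 8.91 in WT. The ratio was above every WT library in every mutant library for 4 of 8 regulators (lin-42, nhr-85, blmp-1 and peb-1), as it was for 22.8% of all tested genes set against nhr-23. In CPM that share was 13.4%, and nhr-85, blmp-1 and peb-1 overlapped. For blmp-1 and peb-1 the groups barely parted: the lowest mutant value of blmp-1 was 14.8 and its highest WT value 14.7, and those of peb-1 were 0.72 and 0.70. In an exact 2-sided permutation test each of the 4 gave p = 0.1, the smallest that 3 libraries against 3 allow, and p = 0.2 adjusted over the 8 ratios. These ratios were added with the values in view, so their p-values only describe these libraries.

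**Figure D4:**
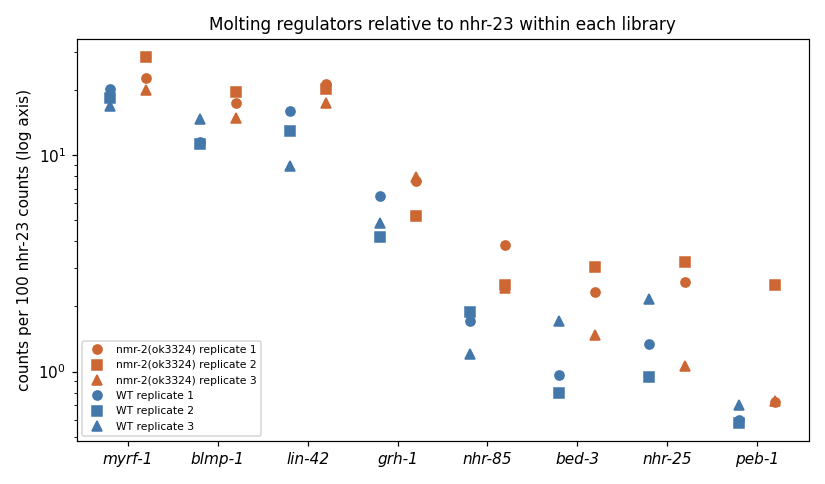
Counts of 8 regulators per 100 nhr-23 counts of the same library, on a log axis, with 1 point per library. The mutant libraries lie above the WT libraries for lin-42 (17.3 to 21.2 against 8.91 to 15.9), nhr-85, blmp-1 and peb-1, the latter pair by a narrow margin.

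Genes that bind, modify or act beside the regulators gave 0 calls in edgeR, DESeq2 and limma-voom. Of 23 listed, 22 had a row and 18 were tested, with a median log2 fold change of -0.01, and 4 of the 18 had an unadjusted p under 0.05. Over all tested genes 2.16% were called, the median was 0.03 and 17.2% had an unadjusted p under 0.05, so that the 4 are near the background share and are given as values only. Of these, myrf-2, the paralogue of myrf-1, had 17.2 to 22.0 CPM in the mutant and 14.3 to 15.6 CPM in WT. This is a log2 fold change of 0.34 (SE 0.14, edgeR adjusted p = 0.24), and of 0.21 without nmr-2(ok3324) replicate 2 (edgeR adjusted p = 0.56). Per kb of exon myrf-2 exceeded myrf-1 by 1.02-fold to 1.37-fold in the 6 libraries. ubc-9, the enzyme that attaches SUMO, a modifier of NHR-25, had a mean of 207 CPM in the mutant (SD 5.56, n = 3) and 249 CPM in WT (SD 14.4, n = 3), a log2 fold change of -0.27 (SE 0.11). ztf-6, a zinc finger gene, and lin-41, the RNA regulator targeted by let-7 that also acts in oocytes, had log2 fold changes of -0.31 (SE 0.14) and -0.32 (SE 0.14). That of ztf-6 was -0.18 without nmr-2(ok3324) replicate 2 and -0.15 with library totals. With library totals, ubc-9 was at -0.09 and lin-41 at -0.15. lin-41 was abundant, with 361 to 544 CPM.

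Among genes whose products build or shed the cuticle at the molt, 3 of 27 tested rose, 0 fell and 24 did not pass. That is 11.1% risen, against 1.79% of all tested genes. The list was chosen with earlier results of these data known, so these shares are a description and not a test. The share called among genes of like level was not computed. mlt-8, which is needed for molting, rose from 5.47, 2.52 and 3.38 CPM in WT to 9.54, 9.30 and 8.31 CPM in the mutant, a log2 fold change of 1.25 (SE 0.24, edgeR adjusted p = 0.0099). mlt-7, which encodes a peroxidase of cuticle formation, rose from 10.4, 9.50 and 12.4 CPM to 16.1, 26.0 and 18.1 CPM (0.89, SE 0.18, edgeR adjusted p = 0.014). acn-1, which encodes a protein related to angiotensin-converting enzyme and depends on NHR-23 and NHR-25 in larvae, rose from 4.05, 4.02 and 4.43 CPM to 6.60, 8.44 and 7.70 CPM (0.86, SE 0.19, edgeR adjusted p = 0.028). In all 3 genes every mutant library lay above every WT library, which adds little, since they were called on these same libraries. Of the 27, 7 did not overlap in this direction. The share was 13.4% of all tested genes and 15.6% to 20.3% in each of the 4 lowest bins of level.

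The markers of epidermis, the tissue that makes the cuticle, did not pass. Of the 3 tested, 2 had every mutant library above every WT library, as had 13.4% of all tested genes. The markers are named here with values in view. rol-6, a cuticle collagen gene, had 5.43, 5.42 and 4.18 CPM in the mutant and 3.49, 1.36 and 2.01 CPM in WT (log2 fold change 1.13, SE 0.30, edgeR adjusted p = 0.069). ajm-1, a gene for an epithelial junction protein, had a log2 fold change of 0.36 (SE 0.12, edgeR adjusted p = 0.17), and lin-26, an epidermal fate gene, had 0.00 (SE 0.12). dpy-7 was not tested, and no marker was at 0. The 4 summed to 145 to 150 CPM in the mutant libraries and 130 to 131 CPM in WT. The sums differed largely through ajm-1, with means of 68.7 CPM in the mutant and 53.6 CPM in WT. lin-26 had a mean of 74.2 CPM in both. Of the 3 body wall muscle markers, 0 passed, and myo-3, a myosin gene, stood at 0.36 (SE 0.11, edgeR adjusted p = 0.13). They summed to 3860 to 4640 CPM in the mutant and 3710 to 3980 CPM in WT. Intestine, neurons and germ line each had 1 marker higher in the mutant without overlap (elt-2, rab-3 and glp-1). Each also had 1 that was lower without overlap (ges-1, snb-1 and pgl-1). For elt-2, rab-3 and glp-1 the groups barely parted. The lowest mutant and highest WT values were 9.51 and 9.38 CPM for elt-2, 4.09 and 4.05 for rab-3, and 108.18 and 108.14 for glp-1. Of all tested genes, 24.4% did not overlap in either direction. The part of these markers in the rise of the effector genes was not tested.

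noah-1, a gene for a zona pellucida domain protein of the precuticle, had values on the other side: 1.81, 3.10 and 2.33 CPM in the mutant and 4.65, 4.90 and 4.27 CPM in WT, with no overlap. The log2 fold change stood at -0.93 (SE 0.25, edgeR adjusted p = 0.076), and it passed with DESeq2 (adjusted p = 0.016), with no low-count filter (edgeR adjusted p = 0.024), without nmr-2(ok3324) replicate 2 (edgeR adjusted p = 0.03) and without both libraries numbered 2 (edgeR adjusted p = 0.02). Under the other settings its adjusted p was 0.061 to 0.26. The median over the 27 genes was 0.24, with 18 (66.7%) above 0, against 0.03 and 53.4% for all tested genes. Of the 27, 20 lie in the 4 lowest of the 10 bins of level, where the median of all 5255 genes was also 0.24 and 69.2% were above 0. The call of mlt-8 was lost without WT replicate 3 (1.16, edgeR adjusted p = 0.053). That of mlt-7 was lost without WT replicate 1 (0.87, edgeR adjusted p = 0.081) and with library totals in place of TMM (1.09, edgeR adjusted p = 0.056), and its value was 0.58 without both libraries numbered 2, where it passed. That of acn-1 was lost with library totals (1.04, edgeR adjusted p = 0.06), without both libraries numbered 2 (0.75, edgeR adjusted p = 0.055) and without any 1 library other than nmr-2(ok3324) replicate 1 (0.77 to 0.90, edgeR adjusted p 0.072 to 0.12). The difference between the effector genes and the regulators was not tested.

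**Figure D5:**
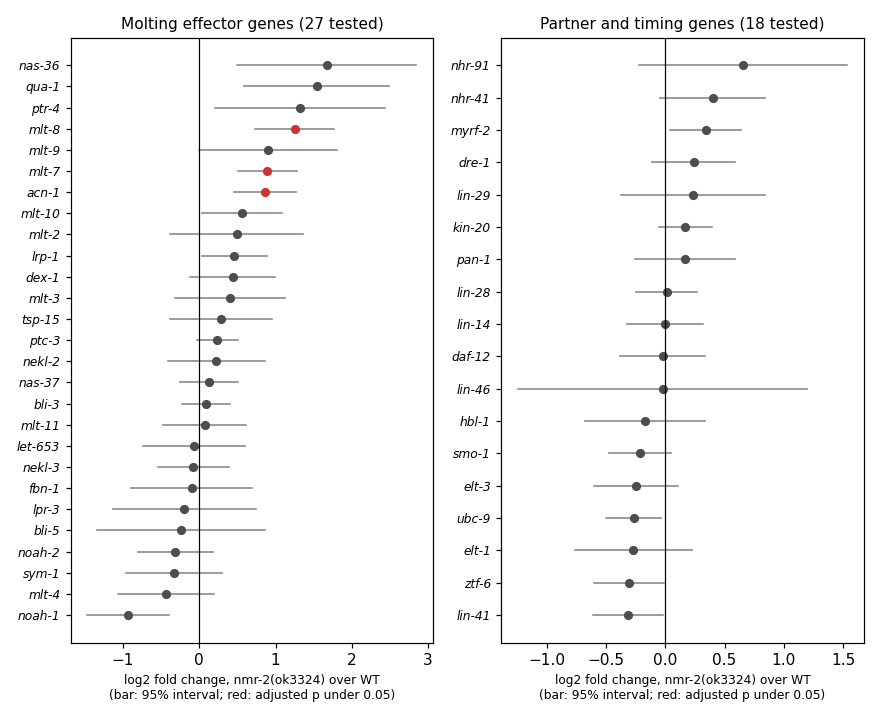
log2 fold change of nmr-2(ok3324) over WT with 95% intervals for the 27 tested molting effector genes (left) and the 18 tested partner and timing genes (right), sorted by value. The 3 red points are mlt-8 (1.25), mlt-7 (0.89) and acn-1 (0.86), noah-1 is at the bottom left (-0.93), and no partner or timing gene is red.

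For the 3 regulators with the widest range of log2 CPM, the 2 tested genes of at least 5 CPM with the most similar centred profile over the 6 libraries were looked up among 8005 genes. They were txt-17 and Y49E10.10 for nhr-85 (root-mean-square difference 0.105 and 0.115 in log2 CPM, against a median of 0.491 over all 8005), F20D6.11 and T22B3.3 for bed-3 (0.186 and 0.201, median 0.556), and wdr-62 and C08F8.6 for peb-1 (0.196 and 0.199, median 0.565). These genes were picked as the nearest, so their distances lie under the median by choice. The regulators had 19 to 64 (nhr-85), 11 to 39 (bed-3) and 8 to 32 (peb-1) counts per library, so counting error enters the profiles. The likeness is a description of these 6 libraries.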

How the data were processed

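The authors deposited raw whole-number counts of reads per gene, 1 table per library. The submitters' processing notes name HTSeq and DESeq2 without versions; the aligner, genome build, annotation and strand setting were not given. Members and gene lists were chosen with earlier results of these data known. A name table matched 44059 of 46911 identifiers, and exon lengths and positions are from WBcel235 (Ensembl release 115). In R 4.3.3, edgeR 4.0.16 kept 13138 genes (filterByExpr by genotype, plus nmr-2), scaled by TMM, and applied glmQLFit (robust) and glmQLFTest with Benjamini-Hochberg adjustment at 0.05 over all tested genes. The SE is the absolute log2 fold change over the square root of F, and intervals are 95%. log2 CPM used a prior count of 2. A count of 3 corresponds to 0.106 to 0.145 CPM, for counting error only. Named genes are the 9 regulators, the called genes and the 4 with the smallest p of both lists, and the 2 nearest profiles of 3 regulators; others are said to be picked with values in view. Replicate libraries differed by more than sampling noise (chi-square per degree of freedom 10.2 to 45.9), so each counted once. The edgeR step was tested on simulated data. Alternatives were DESeq2 1.42.0, limma-voom (limma 3.58.1), RLE factors, library totals, no low-count filter, 1 CPM in 3 libraries, the replicate number as a block, and leaving out each library or both numbered 2. Figures used matplotlib 3.10.9.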

Additional observations from a re-analysis of the deposited data

How the results depend on the processing

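None of the 9 regulators was called under any of the 14 alternatives, and in the 124 fits of a regulator its log2 fold change kept its sign: above 0 for 8 of them and below 0 for nhr-23. peb-1 could not be fitted with the filter of 1 CPM in 3 libraries or without WT replicate 3. The smallest adjusted p of a regulator lay between 0.087 and 0.46 over all settings. Library totals moved the median of all genes to 0.20 and that of the regulators to 0.59.

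Over all genes, the 284 calls became 596 with no low-count filter, 142 with the replicate block and 530 without both libraries numbered 2; leaving out 1 library gave 190 to 259. The 3 effector genes called became 5 with DESeq2, 6 with no low-count filter, 1 with library totals and 1 with the replicate block (mlt-8), and 1 to 3 when 1 library was left out. The cause was not tested. Deviations of same-numbered libraries from their genotype mean correlated across genes at 0.00077, -0.28 and -0.10. Those of differently numbered libraries correlated at -0.15 to 0.23. These values show no pairing by number, but cannot show that no preparation was shared. Depth limits the statements on peb-1, bed-3, nhr-25 and nhr-85, whose lowest libraries had 8, 11, 13 and 19 counts.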

Other observations

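The division of libraries seen for nhr-25 and bed-3 also appeared in listed genes that were picked out after their values were seen. mlt-2, a molting effector gene, had 1.42, 2.24 and 0.903 CPM in nmr-2(ok3324) and 0.904, 0.776 and 1.57 CPM in WT, in the order of replicates 1, 2 and 3. nhr-91, a nuclear receptor gene, had 2.62, 1.79 and 1.14 CPM and 1.38, 0.533 and 1.61 CPM in the same order. In both genes WT replicate 3 was the highest WT library and nmr-2(ok3324) replicate 3 the lowest mutant library. No test was made of this pattern.

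The 27 effector genes summed to 146, 178 and 141 CPM in the mutant libraries and 134, 111 and 127 CPM in the WT libraries. The highest sum was in nmr-2(ok3324) replicate 2 and the lowest in WT replicate 2, the libraries with the extreme scaling factors. The factor of 1.20 lowers CPM in the former and that of 0.838 raises it in the latter. With library totals the log2 fold changes were larger for the 3 called genes: 1.41 for mlt-8, 1.09 for mlt-7 and 1.04 for acn-1.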
